A study of Homo sapiens with 2 samples.

Results

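The sites described here are 733 places inside introns of protein-coding genes where TCF7L1 gave an enriched region and its DNA-binding mutant did not. They were selected on the calls themselves. A site is a distinct region of the TCF7L1 list on chromosomes 1 to 22 or X that no region of the mutant list overlapped by 1 bp, and its first listed summit (the position of highest read stacking) lay inside a protein-coding gene and in no exon of such a gene. The summit also had to lie over 5 kb from every protein-coding transcription start site (TSS) and over 2.5 kb from every long non-coding RNA (lncRNA) TSS, and under 50% of the 31-base words within 100 bp of it could occur 2 or more times in the genome. Of 3663 TCF7L1 regions, 3531 (96.4%) had no overlapping mutant region, 1549 of those on the chromosomes had an intronic summit, 921 of these met both TSS distances and 733 also met the sequence criterion. The sites were thus 20% of all TCF7L1 regions and 26.0% of the 2814 TCF7L1-only regions of unique sequence. The absence of a mutant region and the intronic position are what the rule used and are not findings.

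The data come from chromatin immunoprecipitation followed by sequencing (ChIP-seq) in HCT116, an established human colon cancer line. Cells of both groups carried a lentiviral short hairpin RNA against endogenous TCF7L1 (shTCF7L1-2), were kept in puromycin as stable lines, and received 1 µg/ml doxycycline to switch on a pCW57.1 plasmid. That plasmid expressed FLAG-tagged TCF7L1 in one group and FLAG-tagged TCF7L1-MUT, whose DNA-binding domain is mutated, in the other, and both proteins were precipitated with an anti-FLAG antibody. Each group had 1 sample, so no value has a replicate check, no p-value is given, and all 95% intervals below cover counting over sites only. Both proteins came from an inducible promoter, so the sites describe induced tagged protein and not the endogenous factor.

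TCF7L1 belongs to the TCF/LEF family, whose high mobility group (HMG) box binds a short core sequence in the minor groove of DNA. Without nuclear β-catenin these factors recruit corepressors of the Groucho/TLE family, and of the family TCF7L1 is known mainly as a repressor. Introns of long genes hold many enhancers, which are often bound by several factors at once, among them AP-1, a dimer of FOS and JUN proteins, and factors of the KLF/SP, GATA, FOX and CDX families.

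Sequences of 201 bp centred on the summit are shown for the strongest sites that hold a TCF core, an AP-1 site or both, because these words recur throughout the results. Capitals mark the TCF core (CTTTGAA or CTTTGAT or CTTTGTA or CTTTGTT) and the AP-1 site (TGACTCA) on either strand, so the reverse complements of these words are in capitals too. All were read from GRCh38/hg38. The 3 strongest sites with both words, in introns of ADGRL2, CTNNA2 and CACNA2D3, read as follows.
ADGRL2 (chr1:81920396-81920596, plus strand): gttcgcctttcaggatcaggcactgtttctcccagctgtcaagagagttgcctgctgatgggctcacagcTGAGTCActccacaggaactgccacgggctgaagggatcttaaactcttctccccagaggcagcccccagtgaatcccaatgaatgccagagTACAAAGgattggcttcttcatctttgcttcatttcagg
CTNNA2 (chr2:79393879-79394079, plus strand): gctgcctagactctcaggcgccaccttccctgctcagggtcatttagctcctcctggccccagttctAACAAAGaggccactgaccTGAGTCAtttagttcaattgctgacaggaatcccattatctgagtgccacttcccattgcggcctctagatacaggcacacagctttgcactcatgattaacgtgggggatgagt
CACNA2D3 (chr3:54891603-54891803, plus strand): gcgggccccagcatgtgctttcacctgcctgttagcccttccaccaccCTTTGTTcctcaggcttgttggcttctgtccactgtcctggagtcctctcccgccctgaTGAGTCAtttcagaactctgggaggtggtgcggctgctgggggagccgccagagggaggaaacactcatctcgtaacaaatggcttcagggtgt

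The spacing of the words differed among these windows. In the ADGRL2 site the AP-1 word began 30 bases before the summit and the TCF word 62 bases after it. At CTNNA2 both lay before the summit, with the TCF word starting 33 bases and the AP-1 word 14 bases upstream of it on the plus strand. At CACNA2D3 the TCF word started 52 bases before and the AP-1 word 7 bases after the summit. The 2 strongest sites with a TCF core alone were in FAM172A and WDPCP.
FAM172A (chr5:93677383-93677583, plus strand): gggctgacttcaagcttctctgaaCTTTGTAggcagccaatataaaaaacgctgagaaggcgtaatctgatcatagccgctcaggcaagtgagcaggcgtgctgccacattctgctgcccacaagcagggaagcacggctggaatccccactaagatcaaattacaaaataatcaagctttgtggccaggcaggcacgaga
WDPCP (chr2:63746734-63746934, plus strand): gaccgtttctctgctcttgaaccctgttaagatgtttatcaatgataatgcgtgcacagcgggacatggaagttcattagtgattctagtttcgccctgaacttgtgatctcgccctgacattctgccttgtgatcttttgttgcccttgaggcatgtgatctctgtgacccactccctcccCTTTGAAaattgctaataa

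In both windows the TCF word lay off centre, starting 76 bases before the summit at FAM172A and 82 bases after it at WDPCP. The strongest sites with an AP-1 word alone were in LSAMP, LRMDA and DTNA, and LSAMP held the word at 2 places, 64 bases before and 41 bases after the summit.
LSAMP (chr3:116059800-116060000, plus strand): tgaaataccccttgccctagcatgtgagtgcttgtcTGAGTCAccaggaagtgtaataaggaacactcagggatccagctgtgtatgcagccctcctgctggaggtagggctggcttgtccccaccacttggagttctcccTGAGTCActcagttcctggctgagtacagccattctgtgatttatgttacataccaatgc
LRMDA (chr10:76103370-76103570, plus strand): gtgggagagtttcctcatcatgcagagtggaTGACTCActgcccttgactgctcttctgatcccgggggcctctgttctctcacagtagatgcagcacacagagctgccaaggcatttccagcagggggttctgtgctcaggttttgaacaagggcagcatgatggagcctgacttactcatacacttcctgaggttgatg
DTNA (chr18:34659727-34659927, plus strand): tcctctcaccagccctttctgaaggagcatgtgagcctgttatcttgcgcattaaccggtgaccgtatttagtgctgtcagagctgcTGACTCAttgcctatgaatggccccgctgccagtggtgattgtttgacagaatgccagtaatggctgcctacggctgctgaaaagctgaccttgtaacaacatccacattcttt

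The strongest site of all, in intron 3 of PCDH9, held neither word, and its window has no capitals. It is shown because the leading site by enrichment lacked the letters searched for, which says only that they are not in this window.
PCDH9 (chr13:66835198-66835398, plus strand): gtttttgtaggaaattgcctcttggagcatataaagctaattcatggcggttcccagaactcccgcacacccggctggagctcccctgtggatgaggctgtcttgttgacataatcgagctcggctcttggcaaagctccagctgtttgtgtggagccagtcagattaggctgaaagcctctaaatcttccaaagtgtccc

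Strength was taken from the fold enrichment at the summit, the ratio of the reads stacked there to the local background with 1 added to both. The median over the 733 sites was 5.00 (interval 4.90 to 5.10), with quartiles of 4.22 and 5.80 and a range from 2.5 to 12.6. The number of reads behind these values, solved from the fold enrichment and its p-value, had a median of 21 (interval 20 to 22) and ran from 6 to 128, over a local background with a median of 3.57. The median −log10 q-value was 5.73, and the median width was 406 bp. These are thin signals, and the reads were as few in the whole TCF7L1 list, where the median was 20.

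In fold enrichment the sites differed little from intergenic sites and lay above sites at promoters. A fold enrichment of at least 5 was reached by 365 of 733 sites (49.8%), against 50.2% of all 3663 TCF7L1 regions. In intergenic TCF7L1-only sites of unique sequence that met the same TSS distances the share was 50.1% of 909, a difference of -0.260 percentage points (interval -5.11 to 4.59). In the 683 TCF7L1-only unique sites within 1 kb of a protein-coding TSS it was 35.9%, which was 13.9 points lower (interval of the difference 8.78 to 19.0). The 188 intronic sites that failed only the sequence criterion had the highest share, 64.4%, and the difference was -14.6 points (interval -22 to -6.63). The medians of summit reads were 21 in intergenic, 20 in promoter and 16.5 in repeated intronic sites, so the higher ratio in repeated sequence came with fewer reads and a lower median background, 2.23.

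**Figure D1:**
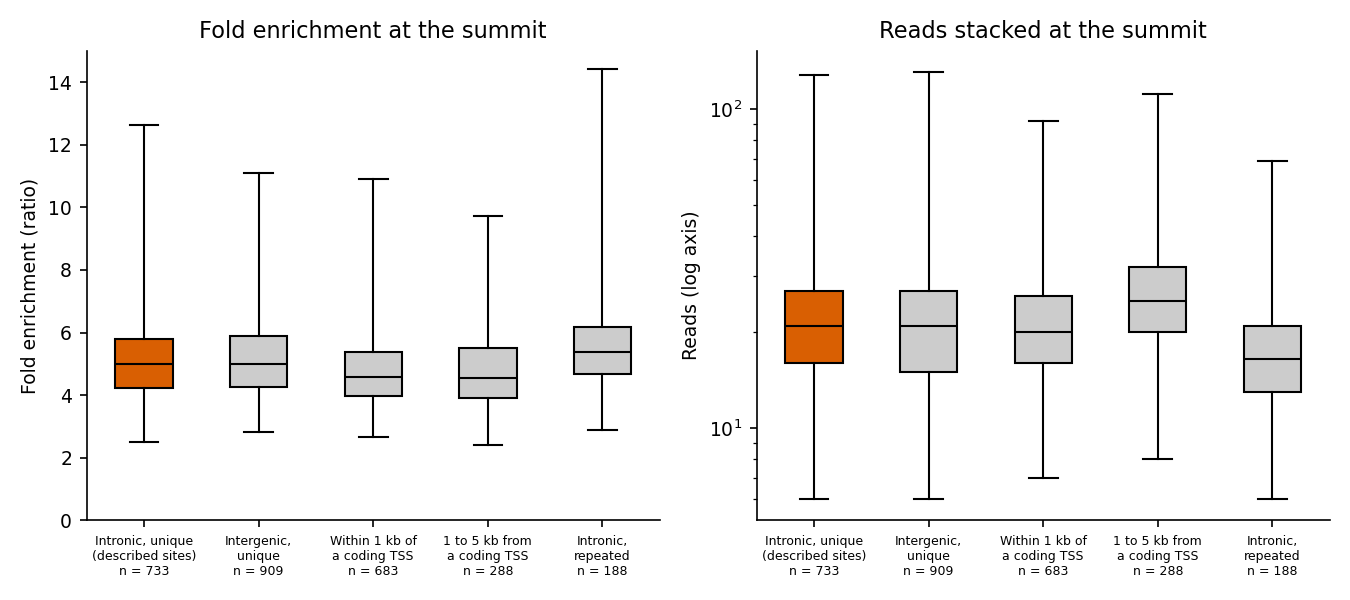
Fold enrichment at the summit (left, ratio) and reads stacked at the summit (right, log axis) for intronic sites of unique sequence and 4 other classes of TCF7L1-only regions. Boxes show quartiles and medians, and whiskers the lowest and highest value; the intronic sites had medians of 5.00 and 21 reads, close to intergenic sites and above promoter sites in fold enrichment.

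Few of the very strongest TCF7L1 regions were among these sites. They made up 0 of the top 10 regions by fold enrichment, 3 of the top 50, 11 of the top 100 and 80 of the top 500 (16%, interval 13 to 19.5%), below their 20% of the list. The rule leaves out repeated sequence and regions shared with the mutant, and how far this sets those counts was not tested.

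The leading sites lay in genes of varied function. The site in PCDH9, which encodes a protocadherin of the cell surface, had a fold enrichment of 12.6 from 128 reads over a background of 9.21, and a −log10 q-value of 90.1, at chr13:66834977-66835582, within the antisense lncRNA gene PCDH9-AS2. It ranked 21 in the TCF7L1 list. The FAM172A site (chr5:93677252-93677754, intron 10 of 10) had a fold enrichment of 11 from 62 reads and ranked 32. It was followed by WDPCP, a gene for a planar cell polarity effector needed for cilia (chr2:63746600-63747027, 10.1 from 25 reads), where the summit lay outside the introns of the canonical transcript. ADGRL2 encodes latrophilin 2, an adhesion receptor, and its site in intron 3 (chr1:81920215-81920864) had a fold enrichment of 9.47 from 34 reads.

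The sites in MACROD2, a gene for an enzyme that removes ADP-ribose, and in ZNF277, a zinc finger gene, had the same values, a fold enrichment of 9.28 from 29 reads over a background of 2.23. Of their 31-base words, 42.7% and 45.6% were found elsewhere in the genome, close to the limit of 50%. The site in EXT2, a heparan sulfate polymerase gene, had a fold enrichment of 9.08 from 68 reads, and that in LIN52, a gene for a subunit of the cell cycle complex DREAM, 8.98 from 45 reads. SOX6, itself an HMG box factor, had 1 site with a fold enrichment of 8.93 from only 19 reads. CNTNAP2 (8.87), LRMDA (8.85) and LSAMP (8.68) completed the 12 strongest. Among these 12, 5 held a TCF core and 2 an AP-1 site, with ADGRL2 counted in both. At the other end, the weakest site was in MSI2, an RNA-binding protein gene, with a fold enrichment of 2.5 from 39 reads over a background of 15.

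The limits of the rule had members on both sides. The site closest to a protein-coding TSS, in TMEM260, lay 5.03 kb away with a fold enrichment of 8.66, and the closest intronic region left out by that limit, in CAPN2, lay 4.99 kb away with 5.31. For lncRNA starts the pair was SMUG1 at 2.57 kb (4.28) and MNX1 at 2.44 kb (4.82). For repeated words it was PTPRD at 49.1% (5.78) and CCSER1 at 50.3% (6.52). The overlap with the mutant removed 1 region that met every other criterion, in ARHGEF18, with a fold enrichment of 6.08. The mutant list held 204 regions, the rule used their absence, and the gaps to them are given without a background. As a description, 1 site, in CCDC178, had a mutant region within 10 kb (at 5.84 kb), 16 had one within 1000 kb, and 57 lay on chromosomes without any.

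The 733 sites fell in 552 genes, with 10 sites inside more than 1 gene. Of these genes, 443 held 1 site, 71 held 2 and 38 held 3 or more, and genes with several sites contained 297 of the sites (40.5%, interval 37.0 to 44.1%). Of all 13481 protein-coding genes with any intron sequence that meets the position rule, 4.09% held a site, and this share rose with the length of that eligible sequence, from 1.38% of genes with 0.01 to 0.05 Mb to 48.4% of genes with over 1 Mb. Per length the picture was flatter. Over the 872 Mb of eligible intron there were 0.841 sites per Mb (interval 0.781 to 0.904), with 0.584 in genes of 0.01 to 0.05 Mb, 0.998 in genes of 0.1 to 0.2 Mb and 0.937 in genes of over 1 Mb. Intergenic sites were less dense, at 0.618 per Mb (interval 0.579 to 0.660). On a fixed grid of 20 kb, 87.7% of intronic and 80.7% of intergenic positions passed the sequence criterion, and the part of this in the difference of density was not tested.

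LRMDA, a gene named for leucine-rich repeats and melanocyte differentiation, held the most sites, 12 over 754 kb. In order from the 5′ end, their fold enrichments were 5.10, 4.03, 5.51 and 5.25 in intron 2, 6.50 in intron 4, and 4.96, 8.20, 2.69, 2.70, 5.48, 4.42 and 8.85 in intron 5. The 2 strongest stood apart from each other in the same intron, and the 2 weakest, 3.73 kb apart, had the highest local backgrounds of the gene, 10.9 and 10.5. Of the 12, 4 held a TCF core and 1 an AP-1 site.

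PCDH9 held 10 sites over 665 kb, with fold enrichments of 6.89, 3.99, 7.07, 8.30, 3.85, 12.6, 3.55, 5.05, 4.05 and 4.56 from the 5′ end. The strongest thus stood between neighbours of 3.85 and 3.55, the nearer of them 25.3 kb away. Only 1 of the 10 held a TCF core and none an AP-1 site, and the gene also had a TCF7L1-only site within 1 kb of a TSS. GMDS, which encodes the first enzyme of GDP-fucose synthesis, held 9 sites with fold enrichments from 3.42 to 5.76, and 6 of them clustered in intron 7. At 16.3 sites per Mb of eligible intron it was the densest of the 8 genes with the most sites.

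AUTS2, linked to neurodevelopment and Polycomb complexes, held 7 sites spread over introns 1, 2, 4 and 5, with fold enrichments of 4.19 to 6.95. RAD51B, a gene of homologous recombination, held 6, of which 5 had fold enrichments of 3.37 to 4.14 and the other, with 47 reads, 5.90. ROBO2, a receptor for Slit guidance proteins, held 5 (4.19 to 6.52), 2 of them with an AP-1 site. GPC6, a glypican of the cell surface, also held 5 (3.0 to 5.88), and 3 of these had an AP-1 site and 1 a TCF core. MACROD2 had 4, from 5.20 to 9.28, and it is named among the genes with this number because its strongest site exceeded theirs. All of these 8 genes except GMDS had at least 1 site above the upper quartile of 5.80.

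**Figure D2:**
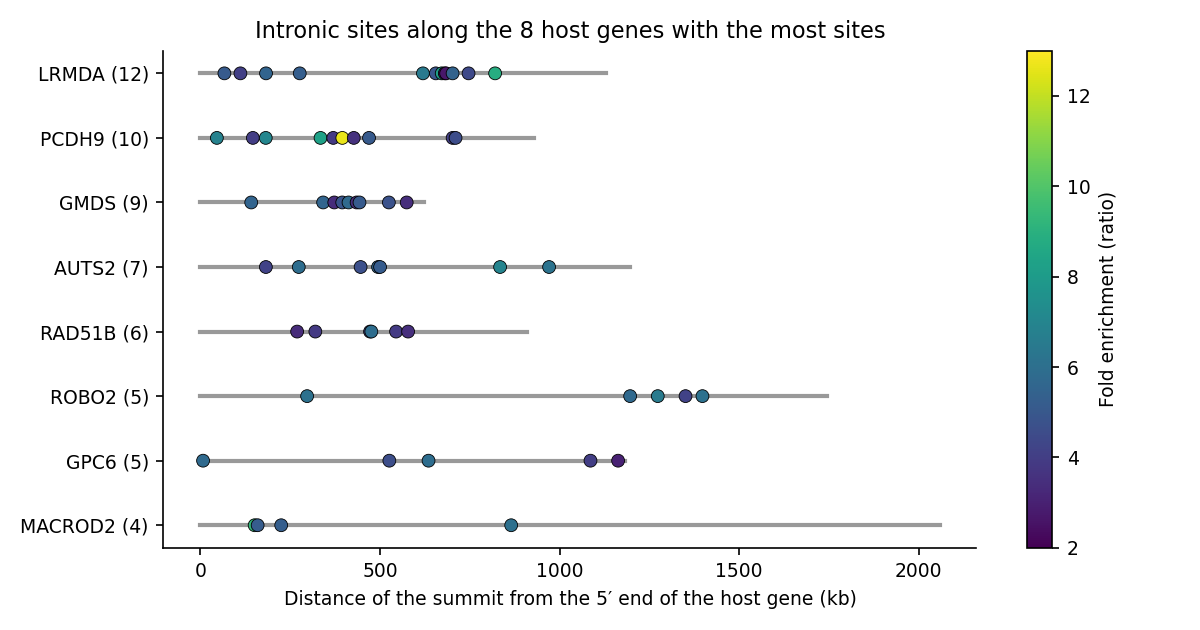
Positions of intronic TCF7L1-only sites along the 8 host genes with the most sites, as distance of the summit from the 5′ end of the gene in kb. Grey bars show the gene length, points the sites, and colour the fold enrichment; LRMDA holds 12 sites and the brightest point is the PCDH9 site with a fold enrichment of 12.6.

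Distances to other TCF7L1 summits are given without a background. Another TCF7L1 summit of any kind lay within 5 kb of 16 sites (2.18%), within 20 kb of 107 (14.6%, interval 12.2 to 17.3%) and within 100 kb of 316 (43.1%). Across chromosomes the density ran from 0.248 per Mb on chromosome 19 (3 sites) to 1.76 on chromosome 17 (40 sites, interval 1.26 to 2.40). Chromosomes 13, with 1.63 per Mb (interval 1.17 to 2.21), and 18, with 1.41 (interval 0.944 to 2.03), also had intervals above the value of 0.841 for all chromosomes, and 10 of the 41 sites on chromosome 13 were those in PCDH9. The median local background was 5.29 on chromosome 17 and 3.29 on chromosome 13, against 3.57 for all sites. The value of chromosome 17 was the highest of all chromosomes. The least dense chromosome, 19, had a median background of 4.37 over its 3 sites, and chromosome 18 had 3.44. The part of background or copy number in these densities was not tested.

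Within genes the sites lay in first introns more often than the grid did, and in late introns less often. The first intron of the canonical transcript held 206 sites (28.1%, interval 25 to 31.5%), compared with 20.5% of 38293 unique intronic positions of the grid, a difference of 7.65 points (interval 4.49 to 11). The fourth or later introns held 33.7% of the sites and 42.8% of the grid, a difference of -9.06 points (interval -12.4 to -5.53). For introns 2 and 3 the intervals of the difference included 0. The median distance to the nearest protein-coding TSS was 25.9 kb for the sites and 25.8 kb for the grid, with overlapping intervals. To the 5′ end of the host gene the medians were 101 kb and 108 kb, also with overlapping intervals. These medians cover all sites and all grid positions, and distances within first introns were not compared. For the 637 sites in introns of the canonical transcript, the median length of the host intron, counted once per site, was 64.2 kb. It was 45.4 kb over the 33435 grid positions in such introns. The share of sites inside a lncRNA gene body was 7.50%, close to 6.89% of the grid (difference 0.612 points, interval -1.10 to 2.76). Sites of the first intron resembled the rest, with a TCF core in 19.9% against 21.6% and an AP-1 site in 11.2% against 9.49%, and both intervals of the difference included 0.

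Genes with an intronic site more often had a TCF7L1 site at a promoter too. Each TCF7L1-only site of unique sequence within 1 kb of a protein-coding TSS was given to the gene of the nearest TSS. Any further gene with a TSS within 1 kb was not counted. Such a site was found for 81 of the 552 host genes (14.7%) and for 484 of 12929 other genes with eligible introns (3.74%). The difference was 10.9 points (interval 8.20 to 14.1). The difference was also present among genes of like length. For genes with 0.1 to 0.2 Mb of eligible intron the shares were 14.3% and 7.45% (difference 6.83 points, interval 1.87 to 13.4), and for those with 0.5 to 1 Mb they were 20.3% and 7.81% (difference 12.5 points, interval 2.30 to 25). Among genes of over 1 Mb the interval (-5.75 to 32.6) included 0, as it did below 0.01 Mb, where no host gene had a promoter site. Expression and chromatin state were not measured in these files, and their part in the pairing was not tested.

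Genes of the Wnt pathway were read first because TCF/LEF factors act at its end. This and the other gene lists were chosen with earlier results of these data known, so their shares are a description and not a test. Across 3 lists of Wnt and TCF genes, 16 of 104 genes with eligible introns held 25 sites (15.4%, interval 9.70 to 23.5%), where 6.30% of all coding genes of like eligible length did so. Per length these genes had 2.38 sites per Mb (interval 1.54 to 3.51). At the membrane, RNF43, a ubiquitin ligase that removes Frizzled receptors, held the strongest site of the 3 lists (chr17:58391334-58391895), with a fold enrichment of 7.83 from 51 reads. A longer overlapping gene with the same 5′ end also held this site, in its first intron. KREMEN1, a receptor for the Wnt inhibitor DKK1, held 2 sites 16.6 kb apart with fold enrichments of 6.06 and 5.37, and both windows had a TCF core. WNT5B, which encodes a Wnt ligand, held 1 site (5.18, 40 reads) with an AP-1 word. PTK7 (4.80) and ROR2 (4.03), both Wnt co-receptors of the non-canonical branch, held 1 each in the first intron, and GPC6 held 5.

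Among signal transducers, TNIK, a kinase that acts with TCF7L2, had a site with a fold enrichment of 5.80 in its first intron. BTRC, the F-box protein that marks β-catenin for degradation, had 1 at 5.57, and GSK3B, the kinase that phosphorylates β-catenin, 1 at 4.28. CTNNBIP1, an inhibitor of the binding of β-catenin to TCF, held 1 at 4.19 with a TCF core. PRKCA (4.37 and 3.41) and PRICKLE2 (4.0) made up the rest of this list. At the level of transcription, LEF1, a TCF7L1 relative, held 2 sites in intron 3, 17.9 kb apart, with fold enrichments of 5.58 and 4.64. The stronger had a TCF core. TLE4, a Groucho corepressor, held 2 (5.34 and 3.95), TCF7L2, the relative with the best known role in colon, held 2 (3.84 and 3.49, 24 reads each, neither with a TCF core or AP-1 word), and CREBBP, a coactivator, 1 (4.43). The median fold enrichment was 5.18 for sites in ligand and receptor genes, 4.28 in transducers and 4.43 in TCF/LEF factors and cofactors, against 5.00 for all sites, and RNF43, KREMEN1, GPC6 and, by a narrow margin, TNIK had a site above the upper quartile.

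Of 57 axon and cell guidance genes, 13 held a site (22.8%, interval 13.8 to 35.2%), against 11.4% of genes of like length, led by the ligand EFNA5 (7.05), ROBO2 (6.52), the ephrin receptor EPHA3 (6.29) and ROBO1 (5.79). Of 50 intestinal lineage and AP-1 transcription factor genes, 10 did so (20%, interval 11.2 to 33%, against 8.47%), led by SOX6 (8.93), FOXP2 (7.84), NFIA (6.02) and TEAD1 (5.77), and TEAD1 alone held 4. In both lists the interval, which takes genes as independent, lay above the share for like length, which was taken as fixed. The same held for TCF/LEF factors and cofactors (4 of 21 genes, 19% against 5.84%, interval 7.67 to 40%), for Wnt transducers (6 of 35, 17.1% against 7.40%, interval 8.10 to 32.7%) and narrowly for Wnt ligands and receptors (6 of 48, 12.5% against 5.71%, interval 5.86 to 24.7%).

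In lists of adhesion and other signalling genes the interval included the share for like length. Cadherins, catenins and junction scaffolds held sites in 5 of 43 genes (11.6% against 15.7%), led by CTNNA2 (6.94), CDH11 (6.68), PARD3 (5.60) and MAGI3 (5.28). The TGF-β and BMP pathway had 4 of 39 (10.3% against 4.73%), NEDD4L (5.41), TGFBR3 (5.23), BMPR1A (3.89) and SMAD3 (3.61), and receptor tyrosine kinases and the ERK pathway had 2 of 41 (4.88% against 7.25%), IGF1R (5.82) and GRB2 (5.68). Matrix, integrin and focal adhesion genes had 1 of 68, ITGA9 (3.31), which is 1.47% (interval 0.260 to 7.87%) against 5.87%. Very long genes at common fragile sites, led by MACROD2 (9.28), CNTNAP2 (8.87) and LSAMP (8.68), held a site in 19 of 42 cases (45.2%), against 41.2% of genes of like length. Of the 9 genes the study singled out, 5 had eligible introns and 0 held a site (interval 0 to 43.4%, against 7.70% of genes of like length), too few to compare.

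**Figure D3:**
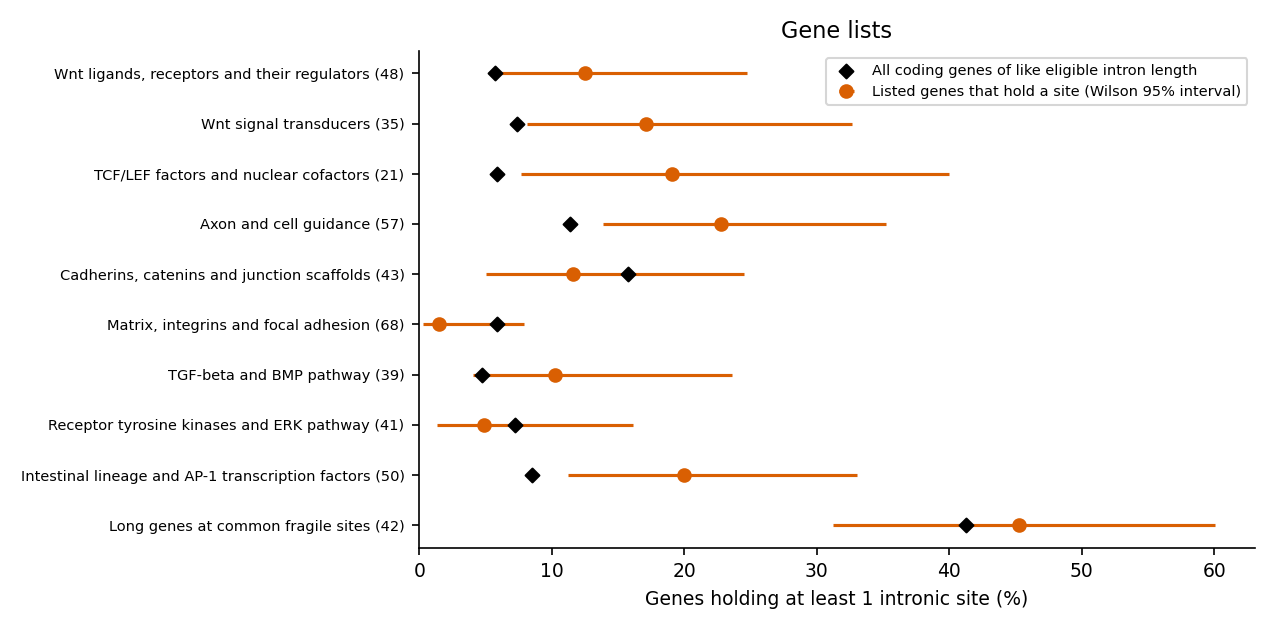
Share of listed genes that hold at least 1 intronic site (orange, percent, with Wilson 95% intervals), beside the share among all coding genes of like eligible intron length (black diamonds); the number of eligible genes is in parentheses. Guidance genes lie at 22.8% against 11.4%, and fragile-site genes at 45.2% against 41.2%.

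The DNA under the summits was richer in G and C than its surroundings. Mean GC content was 49.6% in the windows of 201 bp, 40.8% in windows of the same size 1 kb to either side and 39.6% in the unique intronic grid windows. At 507 sites (69.2%, interval 65.7 to 72.4%) the window had a higher GC content than both of its flanks, and at 45 (6.14%) a lower one. The rise was local, from 41.1% at 1000 bp before the summit to 50% in the central 50 bp and back to 40.6%. A CpG dinucleotide was present in 95.6% of the windows and 73.9% of the flanks, a difference of 21.7 points (interval 18.9 to 24.3). Promoter sites had a still higher mean GC content, 56.3%, and intergenic sites had 50.5%. Base composition alone changes how often any word occurs, so every motif below is set beside the flanks, the grid, and the grid weighted to the GC content of the sites in steps of 5 points.

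The TCF core was somewhat more frequent at the sites than around them. It was present in 155 of 733 windows (21.1%, interval 18.3 to 24.2%), in 16.6% of flanks and in 18.2% of grid windows. The ratio to flanks was 1.27 (interval 1.06 to 1.52) and that to the grid 1.16 (interval 1.01 to 1.34). Against grid windows weighted to the same GC content, which hold this word in 12%, the ratio was 1.76 (interval 1.53 to 2.02, with the background taken as fixed). Of the 4 words, CTTTGAT was present in 5.59% of windows and 3.07% of flanks, CTTTGAA in 7.64% and 5.53%, CTTTGTT in 6.82% and 5.39%, and CTTTGTA in 2.86% and 3.89%. The word was not concentrated at the summit. It occurred 1.23 times per site and kb in the central 50 bp against a mean of 1.03 beyond 500 bp, where single bins reached 1.42, and the highest bin lay 300 bp before the summit.

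AP-1 words were more frequent at the sites by all 3 comparisons. TGACTCA was present in 73 windows (9.96%, interval 8.0 to 12.3%), against 3.27% of flanks and 3.26% of grid windows. The ratio was 3.04 to flanks (interval 2.14 to 4.33), 3.05 to the grid (interval 2.44 to 3.82) and 2.48 to the grid of like GC content (interval 1.99 to 3.07). Its density peaked at the summit, with 0.600 per site and kb in the central 50 bp against a mean of 0.166 beyond 500 bp. The related word TGACGTCA, a cyclic AMP response element, was present in 7 windows (0.955%) and 1 of 1466 flanks. Those 7 sites were in ZSWIM6, CWC27, SERTAD2, TEAD1, TNFRSF8, ZFHX3 and 1 place on chromosome X where RTL9, AMMECR1 and GNG5B overlap, and their names were chosen after their values were seen.

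**Figure D4:**
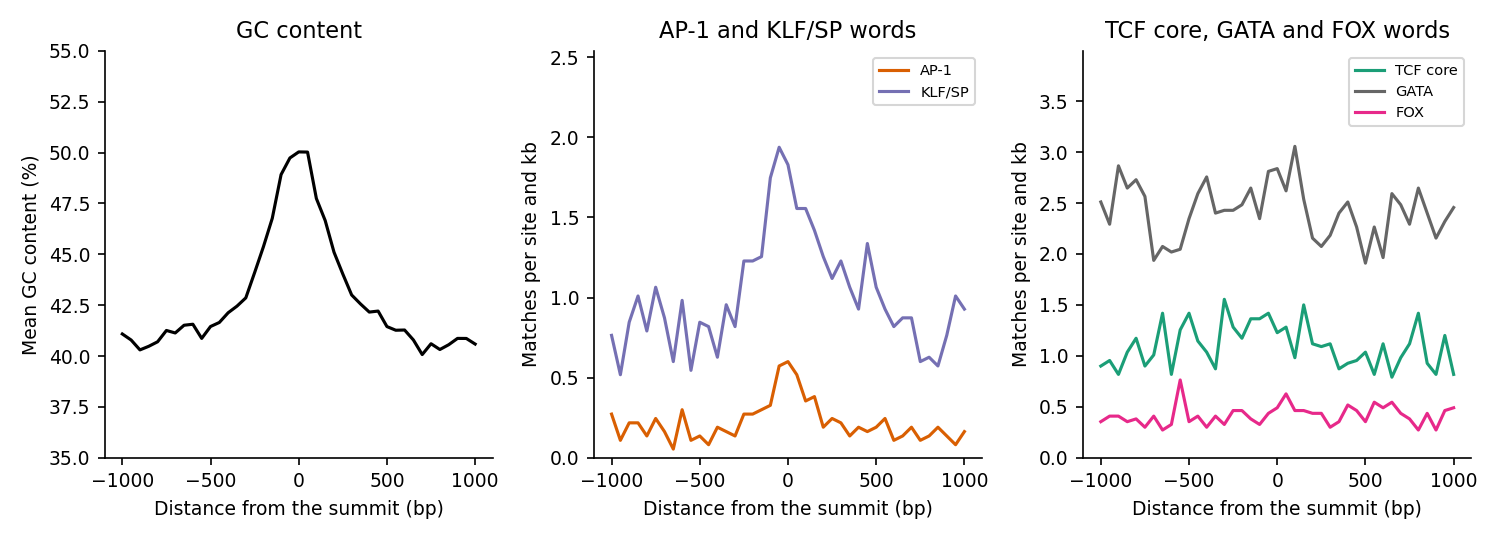
Mean GC content (left, percent) and matches per site and kb of AP-1 and KLF/SP words (middle) and of TCF core, GATA and FOX words (right), in bins of 50 bp by distance from the summit over the 733 sites. GC content and AP-1 peak in the central bin, AP-1 at 0.600 per site and kb, KLF/SP peaks 50 bp before the summit at 1.94, and the TCF core reaches its highest bin 300 bp before it.

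KLF/SP words (GGGCGG or GGGTGG) were present in 26.5% of windows and 12.9% of flanks, a ratio of 2.05 (interval 1.72 to 2.46), with 11.3% of grid windows. Weighted to the GC content of the sites the grid held them in 23%, and the ratio was 1.15 (interval 1.02 to 1.29). The 2 words differed here. GGGCGG was present in 8.32% of windows, 2.86% of flanks and 4.16% of the weighted grid (ratios 2.90 and 2.00). For GGGTGG the shares were 21.4%, 10.6% and 19.9% (ratios 2.01 and 1.07). GATA words (AGATAA or AGATAG or TGATAA or TGATAG) showed the opposite of the KLF/SP group as a whole. They were present in 40.4% of windows and 36.8% of flanks, with a ratio whose interval included 1 (1.10, interval 0.982 to 1.22), whereas against the grid of like GC content the ratio was 1.61 (interval 1.47 to 1.76). FOX words (TGTTTAC or TATTTAC) were present in 9.0% of windows against 7.64% of flanks (ratio 1.18, interval 0.881 to 1.58) and a weighted ratio of 2.39 (interval 1.90 to 3.0). Of these, TGTTTAC was present in 6.55% of windows and 3.82% of flanks (ratio 1.71) and TATTTAC in 2.59% and 4.09% (ratio 0.633), while both lay above the weighted grid (ratios 3.14 and 1.5). CDX words (TTTATGG or TTTATTG), read by a homeobox family of the gut, were present in 14.9% of windows and 11.1% of flanks (ratio 1.34, interval 1.07 to 1.68), and the weighted ratio was 2.96. These words are rich in A and T while the windows as a whole were rich in G and C, and the flank and weighted ratios answer different questions for them.

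E-box words went opposite ways. CAGCTG was present in 16.8% of windows, 6.48% of flanks and 12.3% of the weighted grid (ratios 2.59 and 1.37), and CACCTG in 12.8%, 13.6% and 24% (ratios 0.94 and 0.535). Taken as 1 group they had a ratio of 1.42 to flanks (interval 1.21 to 1.66) and 0.820 to the grid of like GC content (interval 0.726 to 0.92). For TEAD (GGAATG), RUNX (TGTGGTT) and ETS (CCGGAA or AGGAAG) words the intervals of both the flank ratio and the weighted ratio included 1. SOX words (CATTGTT), which another HMG box family reads, were present in 2.59% of windows and 4.16% of flanks, with ratios of 0.623 to flanks (interval 0.375 to 1.03), 0.607 to the grid (interval 0.389 to 0.949) and 0.974 to the grid of like GC content (interval 0.626 to 1.51). The HNF4 word was present in 4 windows, too few to compare. Matches of different families overlapped at few sites, 5 for TCF core and FOX and 7 for TCF core and GATA, and 121 sites (16.5%) held none of the TCF core, AP-1, FOX, GATA, KLF/SP, TEAD and ETS words.

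**Figure D5:**
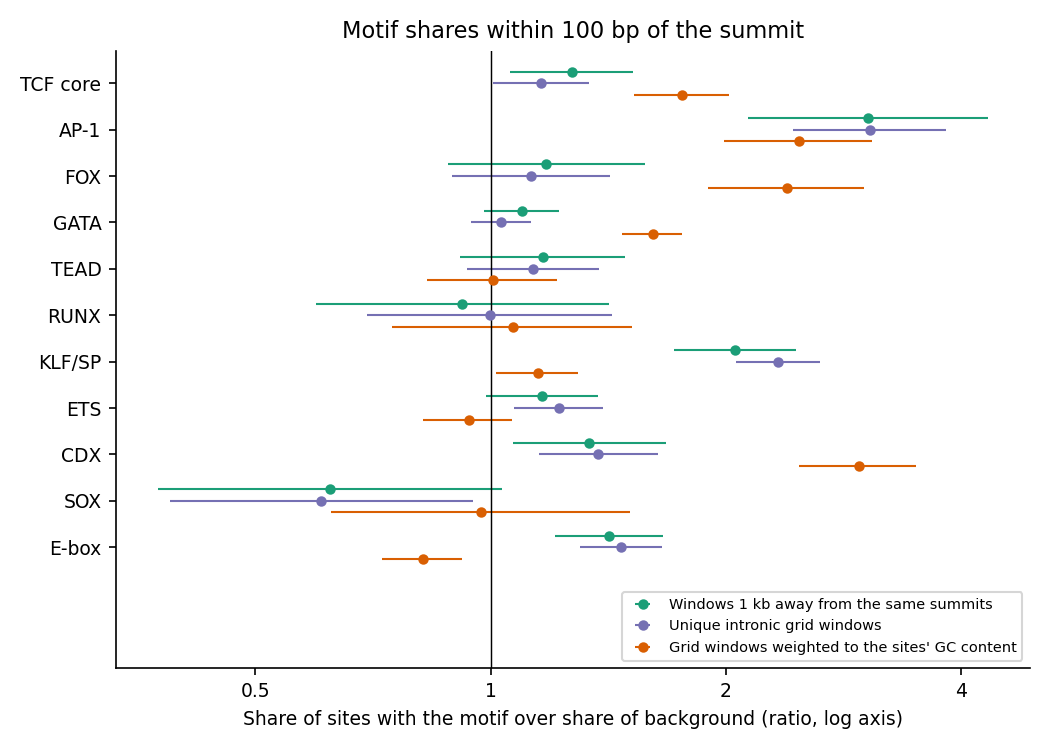
Share of the 733 sites with each motif within 100 bp of the summit, divided by the share in 3 backgrounds (ratio, log axis, with 95% intervals). AP-1 lies near 3.04 against the flanks and at 2.48 against the grid of like GC content, while the TCF core lies at 1.27 and 1.76, and the E-box group, whose 2 words go opposite ways, at 1.42 and 0.820.

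All 7-base words were ranked by how far their share exceeded that of the grid of like GC content. The leading word was CAGCAGG (14.9% of windows, 3.89% of flanks, 7.52% of the weighted grid). Next came AGATAAG, an extended GATA word (8.46%, 3.21% and 2.42%), and the AP-1 word TGACTCA (9.96%, 3.27% and 4.01%). The list went on with ATAAACA (8.87%, 6.62% and 3.01%), which resembles a FOX word, and ATAAATC (7.37%, 3.14% and 1.74%). The TCF word CTTTGAA ranked 17 (7.64%, 5.53% and 3.35%). This ranking is a description, and no word in it was tested.

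No difference of strength with the TCF core or AP-1 was detectable at these numbers. Sites with a TCF core had a median fold enrichment of 4.95 (interval 4.73 to 5.24) and those without 5.01 (interval 4.87 to 5.12), and for AP-1 the medians were 5.04 and 4.99. In the weakest 184 sites a TCF core was present in 19.0% and in the strongest 183 in 20.8%, a difference of 1.74 points (interval -6.44 to 9.91). KLF/SP words were present in 29.3%, 20.8%, 36.6% and 19.1% of sites from the weakest to the strongest group of such size. Their share thus differed between the outer groups (difference -10.2 points, interval -18.8 to -1.44) without an order across all 4. TCF core and AP-1 words shared 11 windows, and an AP-1 word was present in 7.10% of sites with and 10.7% of sites without a TCF core (difference -3.63 points, interval -7.79 to 2.01).

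Compared with other classes, the sites differed from promoters in AP-1 and not detectably in the TCF core. The TCF core was present in 21.2% of promoter sites, a difference of -0.0839 points (interval -4.35 to 4.16), whereas AP-1 words were present in 4.39% of promoter sites, 5.57 points lower (interval of the difference 2.90 to 8.28). GATA words were 19.9 points more frequent at the intronic sites (interval 15.2 to 24.5) and KLF/SP words differed by -17.9 points (interval -22.7 to -12.9), beside the higher GC content of promoters given above. Intergenic sites had a TCF core in 19.5% and AP-1 in 11.7%, and the differences of 1.67 points (interval -2.22 to 5.62) and -1.70 points (interval -4.69 to 1.36) included 0. Intronic sites of repeated sequence had a TCF core in 56.4%, so that the difference was -35.2 points (interval -42.7 to -27.4), and FOX words in 34.0% (difference -25.0 points, interval -32.3 to -18.2). KLF/SP words (58.5%) and E-box words (51.6%) were also more frequent there than at the described sites, and the other word groups were less frequent. Windows of repeated sequence may share sequence with each other, whereas the intervals take them as independent.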

How the data were processed

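ChIP-seq regions of 2 HCT116 samples, TCF7L1 and TCF7L1-MUT (1 sample each, grouped by the genotype in their labels), were analysed. The authors mapped reads to GRCh38/hg38 with BWA (version 0.7.12) and called regions per sample with MACS2 (version 2.1.0). Use of an input library and duplicate handling are not given in the sources used here, and both can change which weak regions are listed. The fold enrichments can therefore not be read as corrected for an input library. No input was at hand to set beside the GC content or the motifs of the sites. The deposited fold enrichment is the ratio of summit reads to local background, and the deposited −log10 p-values and q-values come from the authors' caller. The study reports similar totals of clean reads for both samples, and these totals were not used here because the files hold regions. The reads behind each summit limit its precision.

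Coordinates are 1-based. Genes, exons and TSSs came from GENCODE release 44, and each 31-base word's copies were tallied across hg38 (194 sequences, no alternates). Summit reads were solved from fold enrichment and p-value under a Poisson model, to within 0.001 in −log10 p at all 733 sites. Positions every 20 kb that met the same position and sequence rule served as the grid. Shares have Wilson 95% intervals, differences Newcombe intervals, rates exact Poisson intervals, medians order-statistic intervals and ratios log-normal intervals. Intervals of ratios and differences to flanks take the windows as independent, although each flank belongs to the same site as its summit window. Members, motifs and gene lists were chosen with earlier results of these data known. The named sites are the 12 strongest, the 8 genes with most sites, all Wnt list genes and the leading genes of each other list, up to 4; a few items are not reported here. Scripts ran in Python 3.11.15 with SciPy 1.17.1 and were tested on simulated data. Alternatives tried were stricter copy, q-value, TSS and mutant-distance rules, another summit, transcript, window or background.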

Additional observations from a re-analysis of the deposited data

How the results depend on the processing

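Of 112 values under alternatives, 103 moved by less than the interval of the reported value (counts by under 1.5-fold) and 0 reversed. Some alternatives could hardly move a value. Asking for no mutant region within 10 kb removed 1 site. Only 12 sites had several summits, so taking the strongest summit could change few of the sites. The stricter copy, q-value and TSS rules kept part of the same sites. The 103 values are therefore not independent checks. A q-value limit of 0.001 gave a median fold enrichment of 5.23 and a density of 0.706 sites per Mb, and leaving out all repeated words gave a density of 0.666, both from fewer sites. Windows reaching 50 bp to each side of the summit gave a TCF core share of 10.8% and an AP-1 share of 5.59%, and those reaching 250 bp gave 45.7% and 17.2%, as a shorter or longer window must. With the latter the TCF core share was 4.41 points above that of promoter sites (interval -0.753 to 9.54), and with flanks at 2 kb the AP-1 ratio was 4.56. For these the cause was not tested. The interval of the TCF core ratio reached below 1 with 50 bp to each side (0.998 to 1.71), that of the FOX ratio lay above 1 with flanks at 2 kb (1.13 to 2.09) and with 250 bp to each side (1.03 to 1.48), and that of the GATA ratio lay above 1 without repeated words (1.05 to 1.36) and with 250 bp to each side (1.02 to 1.15). No paired analysis of samples was possible because both groups hold a single sample, which also prevents leaving a sample out. Reads per site were few, and sites with partly repeated windows are the least certain.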
